A study of Mus musculus with 12 samples.

Results

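The regions described here carried an ATAC-seq peak in every library of the study and lay far from the ends of all protein-coding genes. Overlapping peaks of the 12 lists (1 bp or more in common) were joined, which gave 44242 regions on the autosomes and chromosome X. A region was kept when all 12 lists had a peak in it and its midpoint lay more than 2 kb from every end of a protein-coding gene. This left 716 regions, out of 30315 that lay as far from gene ends and out of 5397 that were listed in all 12 libraries at any position. The other 4681 lay at gene ends and serve below as the comparison. The regions were chosen by the presence of a peak in every list, so their number and their presence in every group are no finding.

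The libraries came from endpoint SHH medulloblastomas, cerebellar tumours driven by hedgehog signalling, of untreated mice. All groups share the genotype Ptch1+/-, with a heterozygous loss of the gene of the hedgehog receptor. Cells were sorted by eGFP into SOX2- bulk tumour cells (4 libraries) and SOX2+ stem-like cells (4 libraries), and SOX2+ cells were sorted further by RFP into SOX2+/MKI67- cells that do not cycle (2 libraries) and SOX2+/MKI67+ cycling cells (2 libraries). The age of the mice, the reporter constructs and the number of animals behind a library are not given in the sources used here, so p-values measure the spread between these libraries, which may be technical. Each list held 7009 to 26206 peaks, and the number of reads was not used here, so sequencing depth is unknown. A peak within 2 kb of Sox2, the gene of the sort, was listed in 3 of 4 SOX2- and in all 8 SOX2+ libraries of both sorts, and one at Mki67 in all 12. Atoh1, of granule neuron progenitors, was listed in all 4 SOX2-, 2 SOX2+, 0 SOX2+/MKI67- and 2 SOX2+/MKI67+ libraries. Barhl1, of the same cells, was listed in 3 SOX2- libraries only, and Zic1 in 3 SOX2- and all 8 others. Olig2, of the oligodendrocyte lineage, was listed in 1 SOX2- library and all 8 others. Sox10 was listed in 1 SOX2+ and 1 SOX2+/MKI67- library only. Of the genes that mark other cells, Aif1, Cx3cr1 (microglia) and Cldn5 (endothelium) had no peak in any list. The endothelial gene Pecam1 had one in 3 of 4 SOX2-, 3 of 4 SOX2+, 1 of 2 SOX2+/MKI67- and 2 of 2 SOX2+/MKI67+ lists, and Ptprc (leukocytes) had one in 1 of 4 SOX2- libraries against all 8 of the others.

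ATAC-seq uses a transposase to cut DNA that is not wrapped in nucleosomes. In most tissues the sites cut in every cell type are promoters rich in CpG, whereas distal enhancers differ between cell types. Open sites far from known gene ends that do not vary between cell types are known to include unannotated or alternative promoters and the binding sites of the insulator protein CTCF.

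Many of the regions turned out to hold a transcript start after all, one that begins inside a gene or belongs to a long noncoding RNA (lncRNA). Of 694 regions that could be compared with RefSeq starts on GRCm38.p6, 314 (45.2%) held a start of a protein-coding gene. These starts lay away from both ends of the full span of the gene and are called internal below. Whether they are main or alternative starts of their genes was not examined. A further 61 (8.79%) held only a lncRNA start, and 319 (46.0%) held no start of that table. The 22 regions on chromosome 18 were not classed because the table used here has no start there, and it is not complete elsewhere. By comparison, 3797 of 4542 regions at gene ends (83.6%) held a start. Inside the span of a protein-coding gene lay 496 regions (69.3%) and between such genes 220 (30.7%). Of the lncRNA starts, 50 lay between genes and 11 inside a protein-coding gene, and of the regions with no start 165 lay between genes and 154 inside one.

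**Figure D1:**
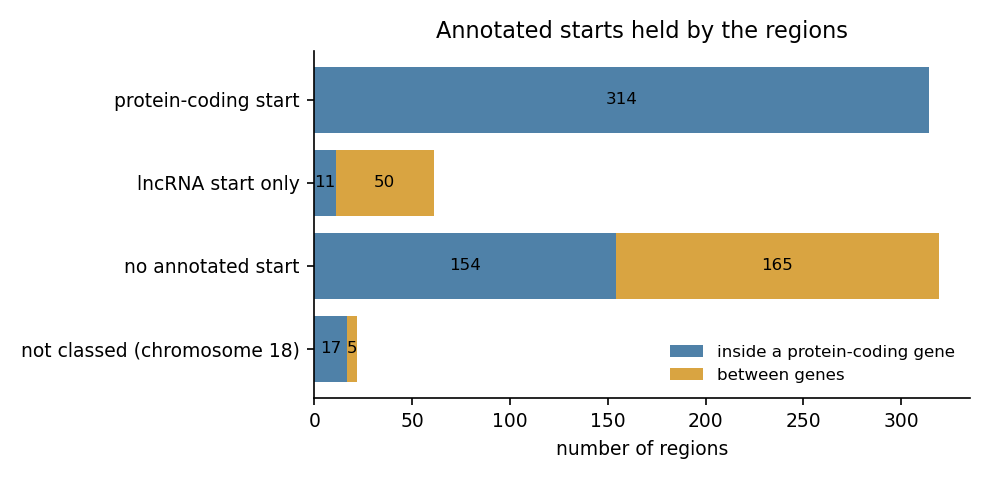
Number of the 716 regions (horizontal axis) by the annotated start they hold, divided by colour into regions inside a protein-coding gene and between genes. Starts of protein-coding genes (314) and regions with no start (319) were about as frequent, and 50 of the 61 regions with only a lncRNA start lay between genes.

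The promoters printed here come from strong regions with a start and from the changing ones. Rps6ka2, the gene of a ribosomal S6 kinase, and the lncRNA gene D130051D11Rik had the second and the third highest mean peak strength of all the regions. The highest, at Kifap3, also held a start but is not printed. Its promoter window had a GC content of 55.0%, against 64.7% at Rps6ka2 and 63.7% at D130051D11Rik. The starts at Ctnnd1 and at the lncRNA gene Gm30713 lie in the 2 start-bearing regions that passed the test between SOX2- and SOX2+ libraries, described below. Each line gives the 250 bases before the start, 5′ to 3′ on the strand of the gene, from RefSeq on GRCm38.p6. Capitals mark the GC box (GGGCGG, the site of SP factors, or CCGCCC on the other strand), an AP-1 match (TGANTCA) in D130051D11Rik, and TATAAA in Ctnnd1.
Rps6ka2, chr17:7169865-7170114, plus strand: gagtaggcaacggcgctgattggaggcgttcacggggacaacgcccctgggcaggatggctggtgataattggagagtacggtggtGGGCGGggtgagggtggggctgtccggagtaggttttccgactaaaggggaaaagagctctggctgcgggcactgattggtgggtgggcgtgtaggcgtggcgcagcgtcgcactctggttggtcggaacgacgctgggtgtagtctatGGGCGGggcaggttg
D130051D11Rik, chr15:85634346-85634595, plus strand: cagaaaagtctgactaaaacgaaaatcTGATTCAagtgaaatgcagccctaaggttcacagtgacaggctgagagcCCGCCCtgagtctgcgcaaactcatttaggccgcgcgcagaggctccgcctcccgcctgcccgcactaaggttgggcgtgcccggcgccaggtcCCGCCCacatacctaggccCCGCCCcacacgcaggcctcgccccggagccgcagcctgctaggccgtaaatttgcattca
Ctnnd1, chr2:84650741-84650990, minus strand: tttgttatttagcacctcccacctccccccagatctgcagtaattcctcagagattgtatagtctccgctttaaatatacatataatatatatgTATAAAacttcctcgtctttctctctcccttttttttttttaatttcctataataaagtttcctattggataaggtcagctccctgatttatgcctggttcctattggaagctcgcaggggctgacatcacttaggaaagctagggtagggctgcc
Gm30713, chr8:125385646-125385895, plus strand: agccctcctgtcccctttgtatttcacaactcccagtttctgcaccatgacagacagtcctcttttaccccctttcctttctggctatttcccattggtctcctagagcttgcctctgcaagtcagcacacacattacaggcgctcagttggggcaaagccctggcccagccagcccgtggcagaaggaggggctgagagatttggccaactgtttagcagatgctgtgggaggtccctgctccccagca
The printed bases of Rps6ka2 hold 2 GC boxes and those of D130051D11Rik hold 3. Those of Ctnnd1 hold 1 TATAAA, and those of Gm30713 hold no GC box. A match is a description of the letters, not a site.

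The starts away from gene ends resembled those at gene ends in base content. Over the window from 250 bases before to 50 after a start, the median GC content was 64.0% for 297 regions whose nearest start was protein-coding, 63.3% for 78 whose nearest start was a lncRNA's and 64.0% at gene ends, against 53.0% for all 32619 windows of the table. The ratio of CpG observed to CpG expected from the base content had medians of 0.82, 0.82 and 0.84, against 0.39 for all windows. Searched on both strands, the GC box GGGCGG was present in 72.1% of the protein-coding windows, 70.5% of the lncRNA windows and 78.2% at gene ends, against 35.9% of all windows. The ETS motif CCGGAAG was present in 19.2%, 14.1% and 21.3%, against 8.92%, and the motif of NRF1, a factor of nuclear genes for mitochondria, GCGCATGC, in 7.41%, 3.85% and 7.43%, against 2.72%. TATAAA was less frequent than in the table as a whole, at 5.72%, 7.69% and 4.35% against 13.7%. AP-1 letters TGANTCA were present in 4.38%, 5.13% and 3.06% against 7.85%. The CTCF core was present in 5 of 297 windows (1.68%) and 2 of 78 (2.56%), against 0.816% at gene ends and 0.561% of all windows. These shares are descriptions without a test. Sequence of the regions that hold no start was not used here, so their CTCF content was not analysed.

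The distance from summit to start was much the same as at gene ends. Only regions that hold a start were used, each with the start nearest its summit. A small distance is thus partly fixed by the choice in both sets. The median summit over the 12 lists lay 33 bp before the protein-coding start (median of 297 regions, quartiles -101 and 39 bp), with 187 of 297 (63.0%) within 100 bp. For the lncRNA starts the median was -27.5 bp and 46 of 78 (59.0%) lay within 100 bp. At gene ends the median was -40 bp and 2510 of 3797 (66.1%) lay within 100 bp.

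**Figure D2:**
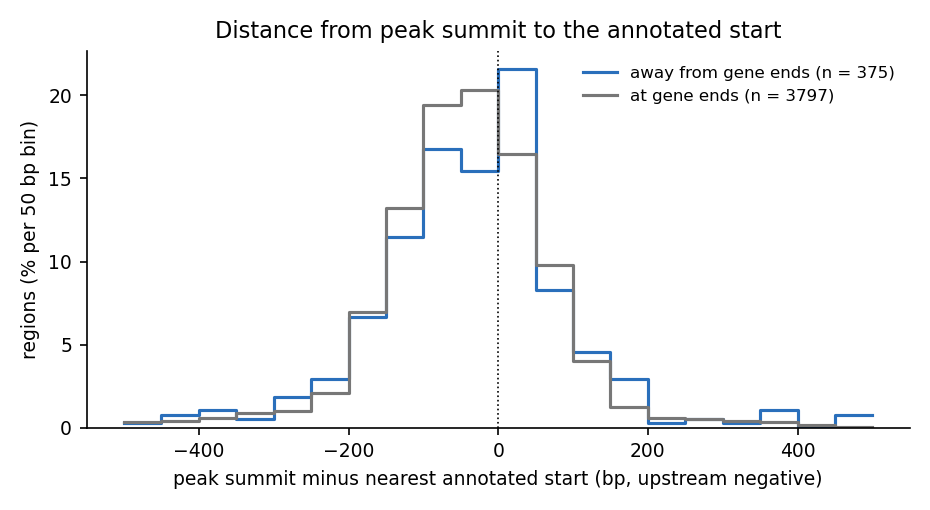
Distance from the peak summit to the nearest annotated start (horizontal axis, bp, negative before the start) as the percentage of regions per 50 bp bin (vertical axis), for 375 regions away from gene ends and 3797 at gene ends, over the distances shown. Both distributions peak within 100 bp of the start, with medians of -33 bp for protein-coding starts of the former and -40 bp for the latter.

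A minority of the regions lay deep between protein-coding genes, though some of these held the start of a lncRNA gene. For the 220 between genes, the median distance to the nearest protein-coding gene was 15.1 kb (quartiles 6.46 and 45.3 kb). Of the 220, 50 lay over 50 kb away and 24 over 100 kb. The most remote, chr15:62902837-62903609, lay 873 kb from Gsdmc, held no annotated start and was chosen for mention after its distance was seen. The regions were spread over all chromosomes, from 20 on chromosome 19 to 58 on chromosome 7. Members with gaps under 10 kb formed 6 pairs and no larger group; one pair spanned 1.79 kb inside Rbpj, which encodes the DNA-binding partner of Notch. Of the 716, 153 overlapped a lncRNA gene, 6 a tRNA gene, 5 a pseudogene and 2 a microRNA gene.

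A few microRNA hairpins lay within 1 kb of a region. The mature sequences of 3 are shown, with the seed (bases 2 to 8, which pair with targets) in capitals, since they name the small RNAs that these open sites neighbour.
let-7i-5p: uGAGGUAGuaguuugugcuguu
miR-9-5p: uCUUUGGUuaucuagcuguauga
miR-210-3p: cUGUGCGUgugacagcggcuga
The 3 seeds differ from one another. The region chr10:122985406-122986587 covered the hairpin of let-7i, a microRNA of differentiating cells, that of Mir9-3, a source of the neural miR-9, lay 130 bp from chr7:79504648-79505134, and that of Mir210, the hypoxia microRNA, lay 79 bp from chr7:141221572-141222321. Their mean percentiles of peak strength, defined next, were 19.1, 16.8 and 43.7. None passed the test between SOX2+ and SOX2- libraries, with limma adjusted p of 0.554, 0.500 and 0.388.

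Peak strength was compared by rank. In each library the 5397 regions listed everywhere were ranked by the largest -log10 q of their peaks, the peak caller's significance, and the rank was written as a percentile with 100 the strongest. All regions are thus ranked over the same number, and a percentile is relative to the other regions of its library. As a description without a test, regions away from gene ends ranked lower than those at gene ends in every library. Their median percentile was 37.1 to 44.3 per library, against 50.9 to 51.9 at gene ends. Averaged over libraries, the median was 39.8 (quartiles 24.2 and 60.3) against 49.5 (29.7 and 71.1). A mean percentile of 90 or more was reached by 27 of 716 regions (3.77%), against 348 of 4681 (7.43%) at gene ends. The width of the merged regions was much the same, with medians of 752 and 790 bp. The position of the summit varied over the 12 lists by a median SD of 52.1 and 48.0 bp. The classes among the 716 ranked close together, with medians of 41.0 for protein-coding starts, 44.2 for lncRNA starts and 38.2 for regions with no start.

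**Figure D3:**
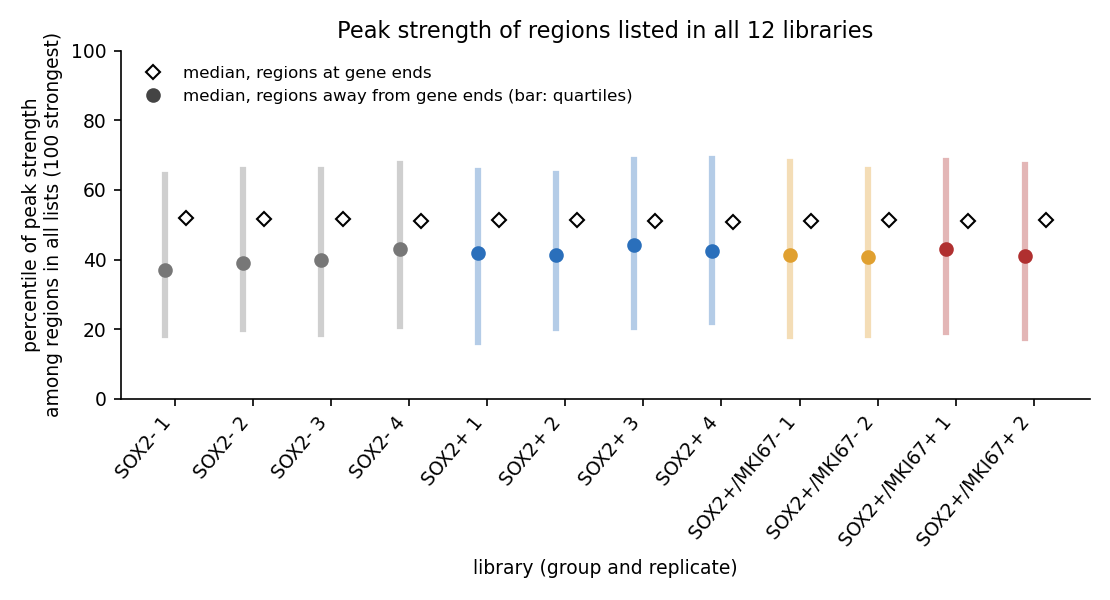
Percentile of peak strength among 5397 regions (vertical axis, 100 strongest) in each of the 12 libraries (horizontal axis). Filled points and bars give the median and quartiles of the 716 regions away from gene ends, and open diamonds the median of the 4681 at gene ends, which is the higher in all 12 libraries.

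Regions away from gene ends were also far less often listed everywhere. Of all merged regions away from gene ends 2.36% had a peak in all 12 lists, and of those at gene ends 33.6%. A further 538 away from gene ends were listed in 11 of 12 libraries. Of these, 386 were missing from the shortest list, SOX2- replicate 1, 102 from SOX2+ replicate 2 and 30 from SOX2- replicate 3. With the 7009 strongest peaks from each list, 329 regions were kept. Those missing from 1 list ranked lower within the whole lists, with a median percentile of 56.8 against 73.5 for the 716.

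The strongest regions on average included internal starts, lncRNA starts and sites with no start. Kifap3, which encodes the accessory subunit of kinesin-2, held an internal start in chr1:163779300-163780086, with percentiles of 99.8, 99.6, 99.7 and 99.9 in SOX2- and 98.1, 99.2, 98.9 and 99.9 in SOX2+ replicates. It ranked first of the 716, at a mean of 99.2, and the groups overlapped. The Rps6ka2 start at chr17:7169513-7170339 averaged 97.6 with a range of 5.65 points over the 12 libraries. The lncRNA start D130051D11Rik at chr15:85634330-85635172, 52.9 kb from the Wnt ligand gene Wnt7b, averaged 97.3 with a range of 6.73. Chaserr, a lncRNA whose gene neighbours the chromatin remodeller gene Chd2, held its start in chr7:73557996-73559035 at 95.6, with a range of 12.2. Ddx50, an RNA helicase gene, held an internal start in chr10:62650955-62651772 at 95.5. Of the first 10, 5 held no start. These were chr15:73067267-73067991 beside Trappc9 (96.8), chr12:29290797-29291442 at 236 kb from the neural factor gene Myt1l (96.4), chr1:23255902-23256902 at 110 kb from Ogfrl1 (96.0), chr7:19131265-19131903 in Fbxo46 (95.1) and chr8:41374365-41375102 in the ceramidase gene Asah1 (94.5). The region near Myt1l and that in Asah1 had their lowest values in SOX2- replicate 1, at 77.8 and 79.7. Over the 27 regions at 90 or more, 14 held a protein-coding start, 4 a lncRNA start and 9 none.

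The weakest regions, as merged over the 12 lists, were not narrower than the strongest. This width is that of the joined peaks, not of 1 peak. The summit varied over the lists by an SD of 49.1 to 296 bp in the lowest 10, against 16.7 to 41.3 bp in the highest 10. The lowest mean was 2.45 at the internal start of Jmjd1c, a relative of histone demethylases, in chr10:67126539-67127478, followed by internal starts of Gramd1a (3.70), a sterol transporter gene, and Ecpas (3.82), a proteasome adaptor gene. Others of the lowest 10 were a region in Jcad (4.49), one near Rhbg (5.11), an internal start of Aff3 (5.42), a region near Zfhx2 (5.86), an internal start of the ubiquitin ligase gene Fbxl17 (6.51), the lncRNA start D730003I15Rik near Atf3 (6.63) and a region in Foxp1 (6.64). The 23 regions under a mean of 10 had a median width of 940 bp and the 27 at 90 or more one of 843 bp. The widest of all, the Fbxl17 region, was 1855 bp wide, and the next were the lncRNA start B330016D10Rik near Spen (1610 bp, mean percentile 32.6) and an internal start of the splicing factor gene Hnrnph1 (1574 bp, 18.9).

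A percentile near 0 or 100 has little room to vary, so ranges were wide mostly between these extremes. The range of percentile over the 12 libraries had a median of 49.2 points, against 46.6 at gene ends. The largest was 96.6 points at the lncRNA start Gm33841, chr2:61533039-61533580, where SOX2- replicate 4 stood at 96.6 and SOX2+/MKI67- replicate 2 at 0.01. A region in Mef2c, a factor gene of neurons and muscle, chr13:83517979-83518719, ranged from 0.69 in SOX2+/MKI67- replicate 2 to 92.3 in SOX2- replicate 1. The other wide ranges were the lncRNA start Gm29638 (93.0), the region near Secisbp2l described below (90.5) and a region in Oxr1 (90.1). In Gm33841, Gm29638, Mef2c and Oxr1 the lowest value was that of SOX2+/MKI67- replicate 2. At the 2 kb limit the regions just inside were internal starts of Mtmr2 (2.01 kb, mean percentile 29.9), Ddx56 (2.01 kb, 30.3) and Morf4l2 (2.02 kb, 81.3), and those just outside lay by Mapt (1.998 kb, 52.4), Srf (1.993 kb, 75.4) and Snapc3 (1.985 kb, 85.2).

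The design asks how SOX2+ stem-like cells differ from the SOX2- bulk. Of the 716 regions 3 ranked higher and 5 lower in SOX2+ libraries. The test was limma on the percentiles of all 5397 regions, with the 4 groups and the log10 list length in the fit, and an adjusted p (Benjamini-Hochberg over the 5397) under 0.05 as the threshold. Over all 5397 regions, 0.445% passed (0.278% higher, 0.167% lower), and of the 716 regions 1.12% passed. Of the 8 that passed, 6 held no annotated start, 1 an internal protein-coding start and 1 a lncRNA start. The groups did not overlap in 35 regions higher in SOX2+ (4.89%, against 3.28% of all 5397) and in 19 lower (2.65%, against 3.00%). Because a library is a bulk of cells, fewer cells with an open site and a site less open in each cell cannot be told apart. Marker loci of other cells were counted as listed genes with a peak within 2 kb. No allowance was made for list length, and the shortest list is a SOX2- one. Of 15 oligodendrocyte genes, 1 to 7 had one in SOX2- and 7 to 14 in SOX2+ libraries, and of 12 leukocyte genes 1 to 4 and 3 to 6. Of 13 genes of astrocytes and Bergmann glia, 0 to 7 had one in SOX2- and 3 to 7 in SOX2+ libraries. Of 12 endothelial and mural genes both groups had 1 to 6, and of 23 granule neuron progenitor genes 12 to 21 and 9 to 18. The part of these in the differences below was not tested. The difference of the 716 had a median of 0.48 percentile points and a median size of 9.35, against 7.78 at gene ends.

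**Figure D4:**
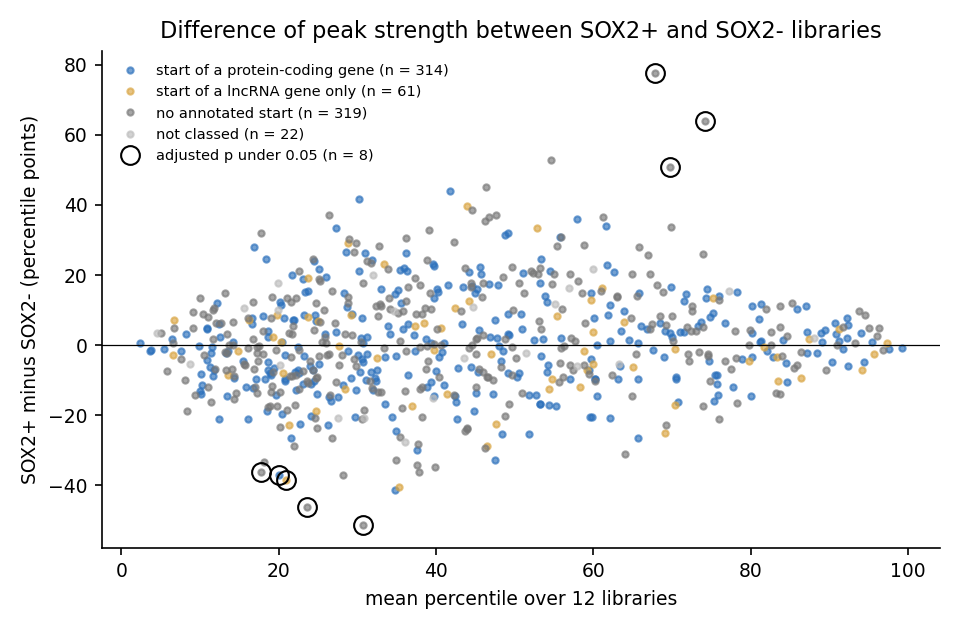
Difference of percentile between SOX2+ and SOX2- libraries from the limma fit (vertical axis, points) against the mean percentile over 12 libraries (horizontal axis) for the 716 regions, coloured by the annotated start they hold. Circles mark the 8 with an adjusted p under 0.05, of which the 3 higher in SOX2+ all hold no annotated start.

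The 2 firmest differences were at sites between genes on chromosome 2. Among the regions listed everywhere, these sites ranked below most others in bulk cells and among the strongest in stem-like cells. A low percentile is a rank among those regions and does not mean a weak peak within the whole list. The first, chr2:125731742-125732579, lay 4.83 kb from Secisbp2l, a relative of the selenoprotein translation factor gene, and 8.01 kb from Shc4, an adaptor of growth factor receptors. Its percentiles were 32.4, 9.83, 7.82 and 22.7 in SOX2- replicates and 95.6, 98.3, 89.4 and 95.8 in SOX2+ replicates. Every SOX2+ library stood above every SOX2- library. The MKI67- replicates stood at 95.9 and 94.6 and the MKI67+ replicates at 83.8 and 88.5, so all 8 libraries of SOX2+ cells were high. The difference was 77.53 ± 8.71 points (SE, limma adjusted p = 2.97e-05), with means of 18.2 ± 11.5 and 94.8 ± 3.8 (SD, n = 4 each). This call held with each of the 12 libraries left out and under every other setting that kept the region. With percentiles within whole lists the difference was 40.33 points. Counted from the strongest peak of the whole list, the region ranked 4012.5, 7567, 7731.5 and 6038 in the SOX2- replicates. Those lists held 7009, 26206, 12660 and 21682 peaks.

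The second, chr2:116975461-116976319, lay between Tmco5 (83.4 kb) and Spred1 (145 kb), an inhibitor of Ras-ERK signalling. It stood at 20.4, 26.0, 40.6 and 39.3 in SOX2- and at 91.2, 96.2, 97.7 and 98.4 in SOX2+ replicates. The groups did not overlap, and the 4 MKI67 libraries stood at 91.6 to 97.8. The difference was 63.84 ± 7.14 points (limma adjusted p = 2.97e-05). It held with each library left out. It was lost when the authors' fold ratio was ranked in place of the q-value (48.2 points, limma adjusted p = 0.231). It was also lost with percentiles within whole lists (29.92 points, limma adjusted p = 0.0753). In the whole SOX2- lists the region ranked 4892.5, 5088, 3571 and 4169.5 from the strongest peak.

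A region inside Cd9, which encodes a tetraspanin of the cell surface, was the third that rose. At chr6:125467180-125467841, 7.24 kb from an end of the gene, percentiles were 7.06, 44.98, 18.1 and 66.5 in SOX2- and 89.0, 93.0, 79.5 and 88.6 in SOX2+ replicates. All SOX2+ libraries were above all SOX2- libraries, whose values were widely spread. The difference was 50.73 ± 9.68 points (limma adjusted p = 0.0232), and it was lost without SOX2- replicate 2 and without SOX2+ replicate 1, 2 or 4. It was also lost with percentiles within whole lists (limma adjusted p = 0.205), with the fold ratio ranked (0.333) and at equal list length (0.0588).

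Among the 5 that fell, the groups did not overlap at Ctnnd1 and at Ranbp17, for example. The Ctnnd1 start, in the gene of p120 catenin, a partner of cadherins at cell junctions, lies in chr2:84650455-84650989. It stood at 31.3, 50.7, 40.0 and 44.6 in SOX2- and at 3.83, 1.92, 11.6 and 6.69 in SOX2+ replicates, a difference of -36.97 ± 7.24 points (limma adjusted p = 0.0232). The MKI67+ libraries (14.9 and 22.3) stood above the SOX2+ ones, and the MKI67- libraries stood at 12.4 and 0.95. Inside Ranbp17, of the family of nuclear transport receptors, chr11:33336415-33337233 stood at 42.2, 56.5, 46.4 and 69.7 in SOX2- and at 1.56, 0.36, 33.7 and 1.42 in SOX2+ replicates. SOX2+ replicate 3 stood apart from the other SOX2+ libraries yet below all SOX2- libraries, and the difference was -46.05 ± 9.03 points (limma adjusted p = 0.0232). The Ctnnd1 call was lost without SOX2- replicate 2 or SOX2+ replicate 1, 2 or 4, and the Ranbp17 call without SOX2- replicate 1 or 4 or SOX2+ replicate 1, 2 or 4. Both were also lost with percentiles within whole lists (limma adjusted p = 0.205 and 0.173) and with the fold ratio ranked (0.231 each).

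At chr2:128245448-128246060, 83.2 kb from Bcl2l11, the gene of the cell death factor BIM, values were 63.8, 66.3, 29.5 and 90.4 against 9.98, 3.14, 8.96 and 30.0 (difference -51.34 ± 11.04, limma adjusted p = 0.0363). At the lncRNA start Gm30713, chr8:125385489-125386262, 32.2 kb from Sipa1l2, values were 13.04, 68.4, 19.9 and 62.7 against 5.54, 4.24, 1.45 and 13.4 (difference -38.37 ± 8.57, limma adjusted p = 0.0449). The groups overlapped at both regions. Leaving out a library ended both calls in 11 of 12 cases, all but SOX2- replicate 3. Both were also lost with percentiles within whole lists (limma adjusted p = 0.188 and 0.215) and with the fold ratio ranked (0.231 each). The Gm30713 call was lost as well without list length in the fit (-34.88 points, limma adjusted p = 0.139).

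**Figure D5:**
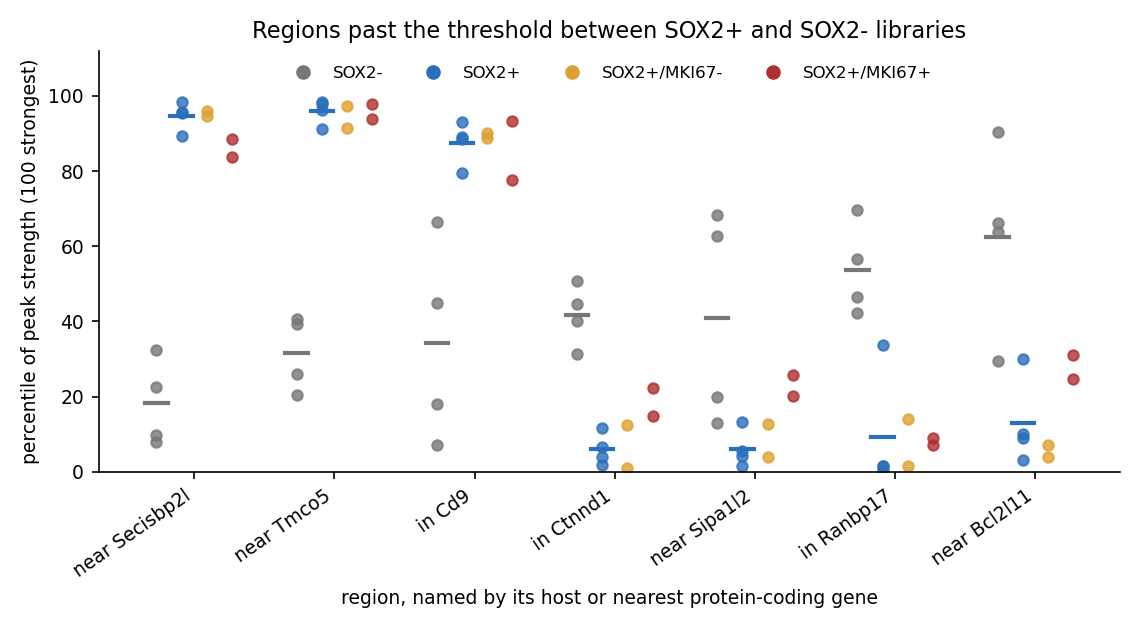
Percentile of peak strength (vertical axis, 100 strongest) in every library (points, coloured by group) of 7 of the 8 regions past the threshold, named on the horizontal axis by their host or nearest protein-coding gene. Short lines are the means of the SOX2- and SOX2+ groups. At Secisbp2l, Tmco5, Cd9, Ctnnd1 and Ranbp17 the SOX2+/MKI67- and SOX2+/MKI67+ libraries all lie beyond every SOX2- library, on the side of SOX2+.

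The 2 start-bearing regions that fell shared a low CpG content. The Ctnnd1 window had a CpG ratio of 0.23 and a GC content of 42.7%, and the Gm30713 window a ratio of 0.08 and a GC content of 57.3%, over windows whose first 250 bases are printed above. Of the 375 regions with a start, 20 had a ratio under 0.39, the median of all windows of the table. Among these 20 the difference between SOX2+ and SOX2- had a median size of 16.41 points and 2 passed. Among the other 355 it was 8.54 points and none passed, where 0.445% of all 5397 regions did. At gene ends the same split gave 12.70 points with 0 of 52 passing and 7.71 points with 12 of 3745 passing. The division was made after the 2 sequences were seen and is not tested.

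Regions were also counted at genes of the tumour's pathways and cell types. None of those among the 716 passed between SOX2+ and SOX2-, where 1.12% of the 716 did. The lists held 12 to 27 of 21631 genes, too few for a low count to show a shortage. Of all 5397 regions 716 lay away from gene ends, and the shares below were not tested against that. The lists of genes were written with earlier results of these data known. Hedgehog pathway genes, which drive this tumour, had 0 of the 716 and 6 of the 5397 regions, and genes of astrocytes and of endothelial cells had 0 of either. Cell cycle genes had 2 of 15 regions away from gene ends and chromatin architecture genes 5 of 20. For granule neuron progenitors, the cells of origin of this tumour, 2 of 5 regions lay away from gene ends. The region chr12:12904196-12905067, 31.5 kb from the oncogene Mycn, stood at 80.0, 90.7, 88.3 and 90.02 in SOX2- and 48.8, 72.0, 75.8 and 69.7 in SOX2+ replicates. Its groups did not overlap, with a difference of -21.1 ± 7.39 points that did not pass (limma adjusted p = 0.226). The other lay in Zic4, a factor gene of cerebellar granule cells (mean percentile 16.7, difference 1.63).

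Stem and progenitor genes had 4 of 7 regions, all at nuclear factor I genes, which control the switch to glia in the developing brain. A region in Nfia, chr4:97618445-97619333, stood at 6.65, 36.9, 19.8 and 12.96 in SOX2- and at 1.71, 5.39, 4.95 and 3.32 in SOX2+ replicates, without overlap (difference -16.3, limma adjusted p = 0.279). The region in Nfix differed by -12.03, that near Nfib by -4.64 and the second in Nfia by -8.11. All 4 differences were negative, and none passed. The oligodendrocyte list had 2 of its 2 regions away from gene ends, near the myelin genes Mbp (16.39) and Mog (-10.13).

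Both cell cycle regions had Ccne1, the gene of cyclin E1, as their nearest protein-coding gene. The first below lay 36.7 kb from Ccne1 and 37.7 kb from Uri1 on its other side, and the second 12.9 kb from Ccne1. One, chr7:38060992-38061623, held the lncRNA start Gm30771 and stood at 44.7, 0.45, 4.86 and 12.6 in SOX2- against 59.2, 52.6, 42.1 and 59.0 in SOX2+ replicates (difference 39.65 ± 11.54, limma adjusted p = 0.131). SOX2- replicate 1 alone overlapped the SOX2+ libraries. The other differed by 20.21 points. The region 3.15 kb from Cdkn1b, whose product p27 stops the cell cycle, differed by -26.34 points (limma adjusted p = 0.263).

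Immediate early genes, which are switched on within minutes of a stimulus, had 4 of 9 regions. These lay near Nr4a1 (difference 15.07), Fos (17.3), Fosb (15.44) and Atf3 (-2.72), and none passed. Chromatin architecture genes had regions in Arid1b (28.24), at the lncRNA start Gm34507 at 86.0 kb from Arid1b (13.34), at Stag1, of cohesin (-14.33), at the remodeller gene Chd7 (-17.24) and at its relative Chd8. The neuronal list had 1 of 6 regions, and the leukocyte list 1 of 1, at 164 kb from Ptprc (5.01). Ubiquitous genes had 2 of 11, among them a region in Ywhaz (9.84).

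For cycling against non-cycling SOX2+ cells, none of the 716 passed in limma, where 0% of all 5397 did. An unadjusted p under 0.05 was found for 30 of the 716 (4.19%), against 3.59% of all 5397. The groups of 2 libraries did not overlap in 250 of the 716 (34.9%), against 33.7% of all. The difference had a median of -0.22 points and a median size of 9.60. Among those with the smallest p, a region in Nol4, chr18:22985048-22985737, stood at 66.4 and 60.1 in the MKI67- and at 88.2 and 96.6 in the MKI67+ libraries (difference 28.38 ± 9.05, limma adjusted p = 1.0), and the Osbpl2 start differed by 21.63. Lower in cycling cells were chr18:20961259-20962027 in Rnf125, at 44.0 and 51.1 against 2.87 and 2.83 (difference -43.64, limma adjusted p = 1.0), the Nudt19 start (-37.77) and a region in Acaca (-37.04). None of these passed, and with 2 libraries a group the SE of a difference was 7.01 to 13.4 points at these regions.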

How the data were processed

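ATAC-seq was measured in 12 libraries, sequenced as single-end reads of 50 bp from 35000 to 50000 cells each, per the labels' protocols. Reads were aligned to mm10 with Bowtie2 and peaks called with MACS2, per the submitters' processing notes; versions and settings were not given there. The deposited lists give each peak a whole-number score, a fold ratio, a -log10 p-value and a -log10 q-value of the authors. These were only used within a list. Peak numbers stood in for depth, which is unknown.

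Computed here were merged regions, distances to the ends of 21631 protein-coding genes of RefSeq GRCm38.p6 (coordinates of mm10), and percentiles of the q-value. The test was limma 3.58.1 (R 4.3.3, lmFit, eBayes with trend) over 5397 regions. It was also run on simulated data with upward shifts only and no added effect of list length. Such data cannot check the calls of lower rank. Named regions were the 10 strongest and weakest, those that passed, the 3 smallest p each way where none passed, the 5 widest-ranging, the 3 widest, those at the 2 kb limit and those at listed genes; a few of these are not reported here. Motifs were searched in RefSeq promoter windows in place of the planned windows at summits. Regions and lists were chosen with earlier results of these data known. Alternatives tried are in the closing section.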

Additional observations from a re-analysis of the deposited data

Results flagged for a closer look

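In groups of 4 libraries, 1 library stood far from the other 3 in 8 of 122 groups checked at 61 named regions. Many of these regions were named for extreme values, so the count was not set against chance. SOX2- replicate 1, the shortest list, stood low near Myt1l (chr12:29290797-29291442, 77.8 against 96.5 to 98.5) and high near Cdkn1b (chr6:134928297-134929054, 66.3 against 36.5 to 41.0). SOX2- replicate 3 stood high at Jmjd1c (chr10:67126539-67127478, 8.3 against 0.1 to 1.3). SOX2+ replicate 1 stood high near Rhbg (chr3:88221441-88222689, 14.4 against 2.5 to 3.9). SOX2+ replicate 2 stood high at Ecpas (chr4:58911515-58912890, 9.0 against 1.1 to 1.8) and near Zfhx2 (chr14:55053633-55054564, 10.9 against 0.6 to 1.2). SOX2+ replicate 3 stood high in Ranbp17 (chr11:33336415-33337233, 33.7 against 0.4 to 1.6) and SOX2+ replicate 4 in Nfix (chr8:84793735-84794812, 18.6 against 1.1 to 3.6). All values are percentiles of peak strength.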

How the results depend on the processing

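The number of regions past the threshold between SOX2+ and SOX2- was 8 and depended on the scale. It was 1 with percentiles within whole lists, 1 with the fold ratio ranked, 1 with 7009 peaks from each list, 2 with a -log10 q of at least 5 and 13 on normal scores, where all 5397 regions gave 62 in place of 24, and 7 without list length in the fit, which lost Gm30713. The cause was not tested, except that 329 and 454 regions were left at equal list length and at the stricter threshold. Leaving out 1 library gave 2 to 10, the fewest without SOX2+ replicate 1, 2 or 4. Of the 7 of these described above, none reversed direction, and 0 of the regions passed between MKI67+ and MKI67- under any setting. The 8 were called again under normal scores, an overlap of at least 100 bp and the replicate block.

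The labels do not say what a replicate number marks. With the replicate block 8 passed, and the same numbers of SOX2- and SOX2+ correlated at 0.036 to 0.072 in their deviations, so the numbers were not taken to pair these libraries. In the MKI67 sort same numbers gave 0.142 and other numbers -0.142, which are equal in size by construction with 2 libraries a group, and pairing there was not settled. Unknown read depth limits what a missing peak shows.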
